A study of Mus musculus with 9 samples.

Results

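The core machinery of N6-methyladenosine (m6A) in mouse testis was examined through 10 genes, chosen by name from 55401 genes of the count table as writers (Mettl3, Mettl14, Wtap), erasers (Alkbh5, Fto) and readers (Ythdc1, Ythdc2, Ythdf1, Ythdf2, Ythdf3). Poly(A) RNA of wild-type testes was sequenced in 9 libraries, namely 3 of input RNA taken before precipitation, 3 of RNA recovered with an IgG isotype control and 3 of RNA recovered with an antibody against N4-acetylcytidine (ac4C), called acRIP. All 9 share the wild-type genotype, and the methods name ICR as the wild-type strain. The sources used here give no age and do not say how many animals were pooled or whether the libraries of a group came from separate precipitations, so the p-values below measure the spread between these libraries, which may be technical. Libraries were built by Smart-seq2, from a fixed amount of RNA for input and, by the methods, from an unquantified amount for both precipitates, which held too little RNA to measure. The comparison of acRIP with both other groups asks which transcripts take a larger share of the acRIP libraries than of the IgG and input libraries. Since the recovered amounts were not measured, higher and lower below refer to shares of a library after scaling. They do not give the amount of a transcript that either antibody recovered.

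As background, m6A is placed on mRNA by a complex whose catalytic subunit is METTL3, with METTL14 as its RNA-binding partner and WTAP as the adaptor that keeps the complex in nuclear speckles. FTO and ALKBH5 remove methyl groups from adenosine in RNA, and proteins with a YTH domain bind the mark. In testis, loss of Alkbh5 or of Ythdc2 is known to impair spermatogenesis. The modification selected by the antibody, ac4C, is a different one that NAT10 places on cytidine.

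The study's text names a cytidine-rich motif for its testis acRIP peaks, which in DNA letters reads CNCAGNNC, where the second and the seventh letter are any base but G and the sixth is C or G. Searched on the transcript strand of the merged exons, without joining exons, this motif was present in 74.4% of the 22490 tested genes with sequence, at a median of 0.582 matches per kb. Of the 10 genes, 9 held a match, and Mettl14 held 0 in 7419 exon bases. Ythdf2 held 7 matches (1.53 per kb, above 88.5% of genes) and Mettl3 held 5 (0.985 per kb, above 71.8%). The 3 coding-exon matches of Ythdf2 are shown because it held the most matches of the 10 genes. In acRIP, Ythdf2 was lower than in IgG and input, and so was Ythdf3, which had the lowest density above 0 (0.187 per kb), while Mettl14, with no match, was higher than both. These genes are examples. Whether motif density goes with the acRIP difference was not tested, over the 10 genes or over all genes. Each sequence is 30 bases of mm10 (GRCm38.p6), 5′ to 3′ on the minus strand, with the motif in capitals.
Ythdf2, chr4:132205361-132205390: acgcttatgcaCCCAGCTCcttaggtggag
Ythdf2, chr4:132204820-132204849: accacagcctgCTCAGCTCtcagtccagca
Ythdf2, chr4:132204370-132204399: aggtgtgtggtCCCAGGACaaatggaaggg
A match describes letters only and is not a mapped ac4C site, since the counts are per gene. The other genes held between 1 match (Ythdf3) and 5 (Ythdc2, 0.563 per kb).

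By the total of merged exon bases per gene, all 10 genes exceeded the median of 3006. They ran from 3316 in Ythdf1, above 54.1% of genes, to 13651 in Ythdc1, above 97.5%. Their GC content was mostly low, with 7 of 10 below the median of 48.3%. Ythdc1 had 36.9% GC, which only 1.6% of genes undercut, and Ythdf3 had 38.5%. The share of G and C was highest in Alkbh5, at 50.1%.

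Total counts were 22023925 to 31340090 in input, 14647542 to 18786779 in IgG and 16025779 to 18639134 in acRIP. Between 81.9 and 84.3% of counts from 1 to 20 were even, so the number of independent fragments was below the number of counts. The locus CT010467.1 took 5.14 to 5.57% of IgG and 9.35 to 10.6% of acRIP counts. The labelled tissue was checked against its markers. All 12 markers of germ cells, spermatocytes and spermatids had counts in every library, and of the 3 Sertoli cell markers Rhox5 alone was listed at 0 throughout. The summed level of the 2 macrophage markers (Adgre1, Cd68) was 2.97 to 4.42 FPKM in input, 3.96 to 6.14 in IgG and 0.298 to 0.904 in acRIP. The erythroid gene Alas2 likewise had 7.46 to 8.81, 5.91 to 6.82 and 0.759 to 0.935 FPKM. The summed level of the 4 general germ cell markers was 314.1 to 332.8, 211.2 to 225.2 and 144.0 to 163.1. Ddx4 made up most of that sum (means 266.5, 167.2 and 116.4), and Dazl fell too (51.12, 38.37 and 32.19). Of the others, Zbtb16 rose (0.273, 0.410 and 1.76) and Stra8 was highest in IgG (6.08, 10.79 and 4.97). Summed spermatocyte markers were 411.6 to 442.0, 413.2 to 433.6 and 329.9 to 348.5, although Sycp1 among them was lowest in input (35.72, 59.82 and 50.09). Summed spermatid markers were 19490 to 22710, 22860 to 23640 and 22890 to 24930. Myh6, listed as a marker not of testis, had means of 0.829, 0.257 and 0.279 FPKM. Leydig cell markers overlapped between groups (421.4 to 500.0, 425.5 to 443.6 and 416.9 to 468.7). The part of these cell types in the results below was not tested.

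In input, the cytoplasmic reader Ythdf2 had the highest level per length among the 10 genes, at 11.6 ± 0.217 FPKM (CPM, the count relative to the library total, divided by the exon length in kilobases; SD, n = 3). The demethylase Fto followed at 9.21 ± 0.313, then Ythdf3 at 7.33 ± 0.280 and the other demethylase, Alkbh5, at 6.82 ± 0.295. The catalytic subunit Mettl3 stood at 3.74 ± 0.280 FPKM, above its partner Mettl14 at 1.87 ± 0.318. Ythdc1, the nuclear reader, had 1.88 ± 0.119, Ythdf1 1.45 ± 0.367, Wtap 1.37 ± 0.178, and Ythdc2, a reader with a helicase domain, 1.20 ± 0.0136. For such levels in whole-tissue input, fewer cells of a type and less RNA per cell cannot be told apart. Of the 9 pairs of neighbours in this order, 4 overlapped in their libraries: Ythdf3 with Alkbh5, Ythdc1 with Mettl14, Mettl14 with Ythdf1, and Ythdf1 with Wtap. The order depends on the length used, that of all merged exons of a gene (13031 bases in Fto and 4572 in Ythdf2). In CPM, not divided by length, Fto had 120.1 and Ythdf2 52.84 in input. Which isoforms were expressed was not tested.

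**Figure D1:**
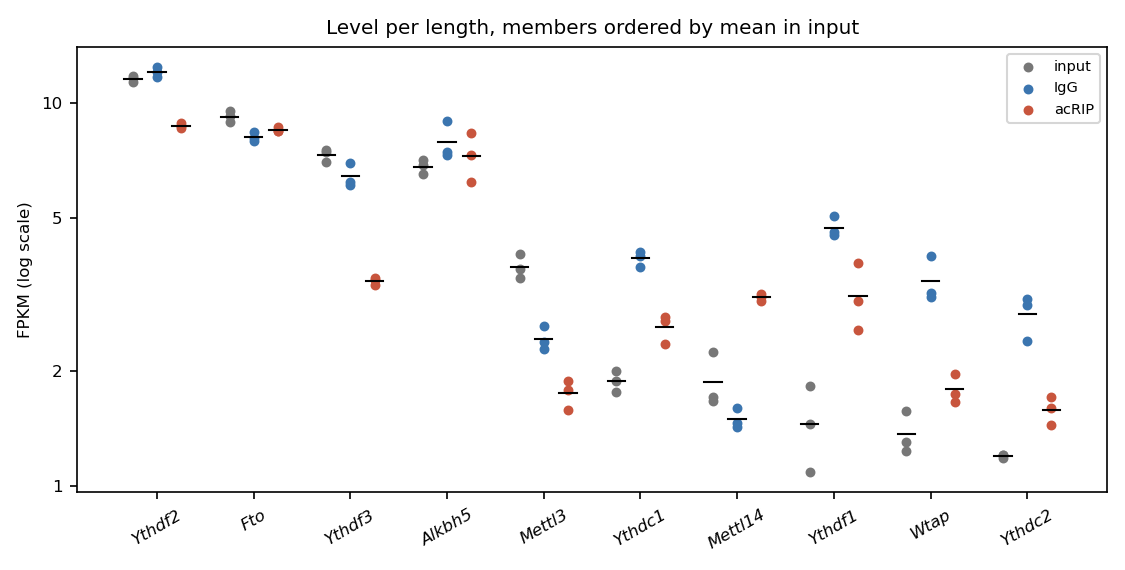
Level per length (FPKM, log axis) of the 10 genes in each of 3 input, 3 IgG and 3 acRIP libraries, ordered by their mean in input; points are libraries and lines are group means. Ythdf2 had the highest mean per length in all groups, and Mettl14 was the lowest in IgG at 1.495 FPKM but stood at 3.11 in acRIP.

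The order changed after precipitation. In IgG, Ythdf2 (12.04 ± 0.355 FPKM) was highest, followed by Fto (8.14 ± 0.217) and Alkbh5 (7.92 ± 0.931), which overlapped in their libraries, while Mettl14 was last at 1.495 ± 0.0887. In acRIP, Ythdf2 (8.72 ± 0.131) and Fto (8.52 ± 0.117) overlapped in their libraries, Mettl14 was sixth at 3.11 ± 0.0609, and Mettl3 was ninth at 1.75 ± 0.155. Neighbours overlapped in 3 of 9 pairs in IgG and in 5 of 9 in acRIP. The summed level of the 10 genes was 46.4 FPKM in input, 53.4 in IgG and 41.9 in acRIP. The order of input and acRIP turned when all genes among the 10 largest of any library were left out of the library totals (49.12 in input, 59.71 in IgG and 49.67 in acRIP).

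Compared with the IgG control, 1 of the 10 genes was higher in acRIP and 7 were lower at an adjusted p under 0.05 (edgeR's quasi-likelihood test, Benjamini-Hochberg adjustment over 22510 genes). Over all genes tested, 26.4% were higher and 37.6% lower by this rule. With a fold change over 2 as a further condition, 1 gene was higher, Mettl14, against 11.5% of all genes, and 0 were lower, against 20.9%. The median log2 fold change was -0.49 over the 10 genes and -0.09 over all genes.

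Compared with input, 5 genes were higher in acRIP and 3 lower, where 32% and 40.3% of all genes were. Over 2-fold, 1 gene was higher (Ythdf1) and 2 were lower (Mettl3 and Ythdf3), against 17.7% and 22.9% of all genes. Both lower genes lay near the 2-fold limit, and their number was 1 without input replicate 1, acRIP replicate 2 or acRIP replicate 3 and 0 without input replicate 2. The median was 0.32 over the 10 genes and -0.10 over all genes on the log2 scale. The IgG libraries themselves departed from input, with 5 genes higher and 2 lower, where 25.9% and 26% of all genes were. Over 2-fold, 4 genes were higher in IgG than in input (Wtap, Ythdc1, Ythdc2 and Ythdf1), against 13.5% of all genes, and 0 were lower, against 7.22%. The 3 comparisons share libraries and are therefore given side by side.

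**Figure D2:**
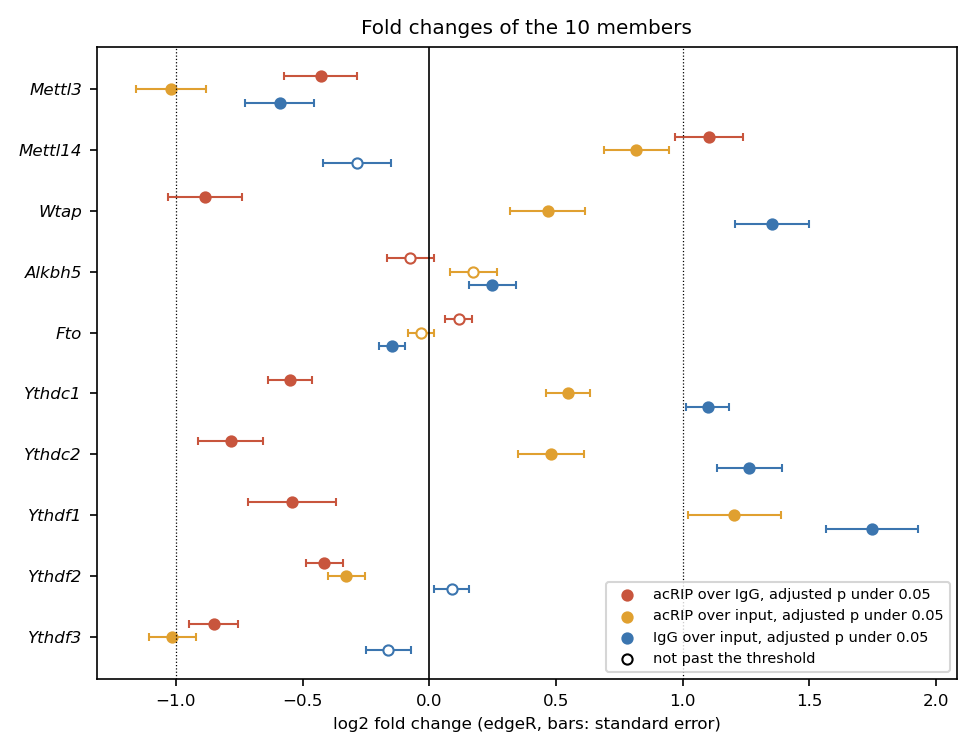
Log2 fold change of each gene in the 3 comparisons, with the standard error as bars; filled points had an adjusted p under 0.05 (edgeR), open points did not, and dotted lines mark 2-fold. Wtap, Ythdc1, Ythdc2 and Ythdf1 lie right of 0 for both precipitates over input and left of 0 for acRIP over IgG.

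Read against both controls together, the genes fell into 4 patterns, which were described after their values were seen. Mettl14 alone was higher in acRIP than in both IgG and input, a pattern that 18.2% of all genes had. Mettl3, Ythdf2 and Ythdf3 were lower than both, as were 29% of all genes. Wtap, Ythdc1, Ythdc2 and Ythdf1 were higher than input but lower than IgG, a pattern held by 3.23% of all genes. The erasers Alkbh5 and Fto passed against neither, as did 16.2% of all genes. Thus of the 5 genes that were higher in acRIP than in input, 4 were lower in acRIP than in the IgG control. Over all genes tested, this held for 726 of the 7204 genes that were higher than input.

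**Figure D3:**
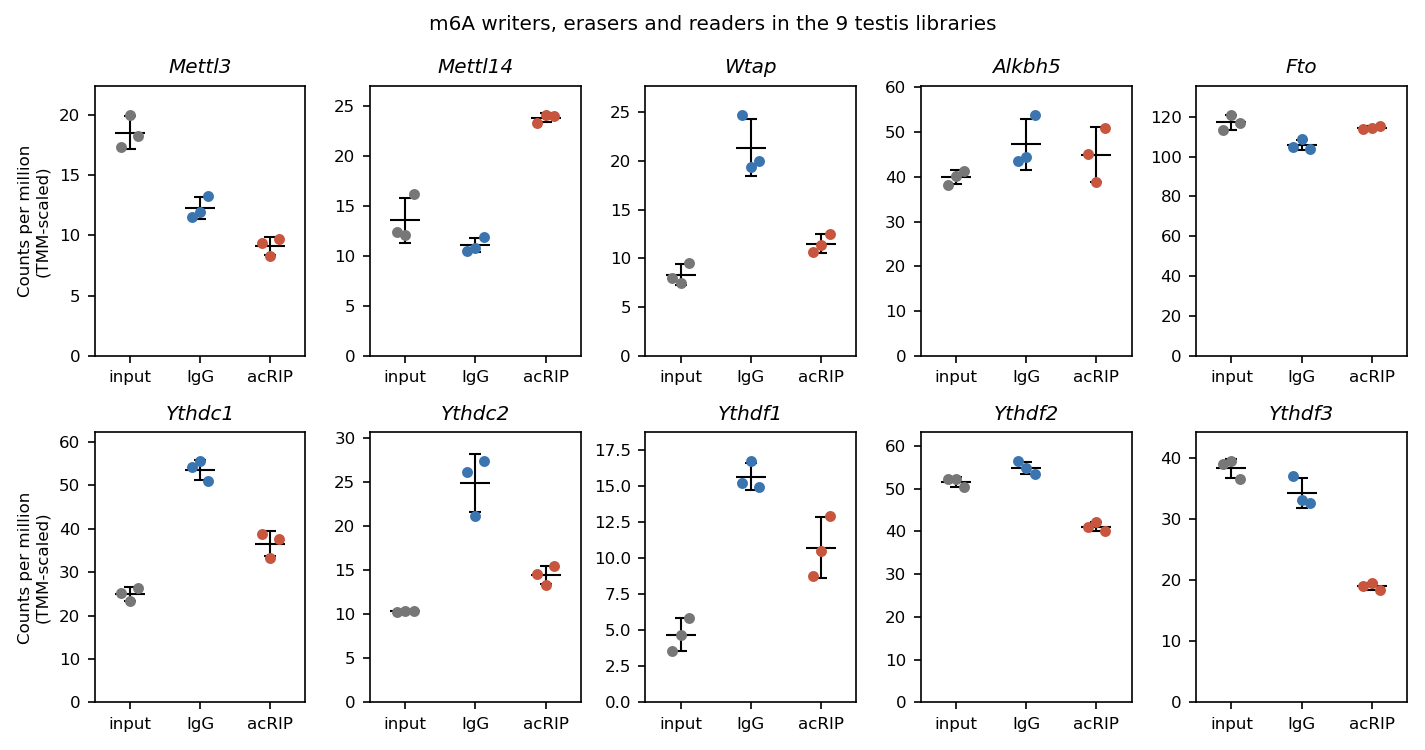
CPM scaled by TMM factors of each gene in the 3 input, 3 IgG and 3 acRIP libraries; points are libraries, and black bars show mean and SD. The acRIP libraries of Mettl14 lie at 23.3 to 24.1, above all others, while those of Ythdf3 lie at 18.4 to 19.6, below all others.

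Among the writers, Mettl14 (chr3:123368297-123386108, minus strand) had 12.4, 12.04 and 16.1 scaled CPM (relative to library totals multiplied by trimmed mean of M-values, TMM, factors) in the input libraries, 10.5, 10.8 and 11.8 in IgG, and 23.3, 24.1 and 24.003 in acRIP. All acRIP libraries lay above all others. Its log2 fold change in acRIP was 1.10 ± 0.13 (SE) over IgG (edgeR, adjusted p = 2.74e-08) and 0.82 ± 0.13 over input (edgeR, adjusted p = 1.45e-06), and that of IgG over input was -0.29 ± 0.14 (edgeR, adjusted p = 0.0757). Its fold change was 2.15 over IgG and 1.76 over input, with 95% intervals on the log2 scale from 0.77 to 1.43 and from 0.50 to 1.13. Tested against a fold change of 2, the difference from IgG did not pass (edgeR, adjusted p = 0.29). The difference of IgG from input passed with upper quartile scaling (-0.38, edgeR adjusted p = 0.0166), with library totals (edgeR, adjusted p = 0.0496) and without input replicate 2 (edgeR, adjusted p = 0.0433).

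Mettl3 (chr14:52294841-52305128, minus strand) behaved differently from its partner. Its scaled CPM were 17.4, 20.01 and 18.2 in input, 11.6, 11.98 and 13.3 in IgG, and 9.33, 8.32 and 9.75 in acRIP, with no overlap between groups. The log2 fold change was -0.43 ± 0.14 over IgG (edgeR, adjusted p = 0.0105) and -1.02 ± 0.14 over input (edgeR, adjusted p = 1.1e-07). Without acRIP replicate 2 the difference from IgG was -0.36 with an edgeR adjusted p of 0.0516. Of its exon bases, 933 (18.4%) overlap Tox4 on the opposite strand, a gene with 12496 counts over all libraries. The strand setting of the counting is not given in the sources used here. How far the overlap changed the Mettl3 counts is therefore not known, and the share of exon bases does not bound it.

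Within each library, the ratio of Mettl3 to Mettl14 does not depend on the library scaling. On the FPKM scale it was 2.04, 2.43 and 1.65 in input, 1.60, 1.62 and 1.64 in IgG, and 0.585, 0.505 and 0.594 in acRIP. Mettl3 thus exceeded Mettl14 in all 6 libraries of input and IgG and was below it in all 3 of acRIP. The difference in log2 ratio was -1.53 for acRIP minus IgG and -1.85 for acRIP minus input, each with an exact two-sided permutation p of 0.1, which is the smallest that 3 against 3 libraries can give (0.167 after adjustment over 15 comparisons).

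**Figure D4:**
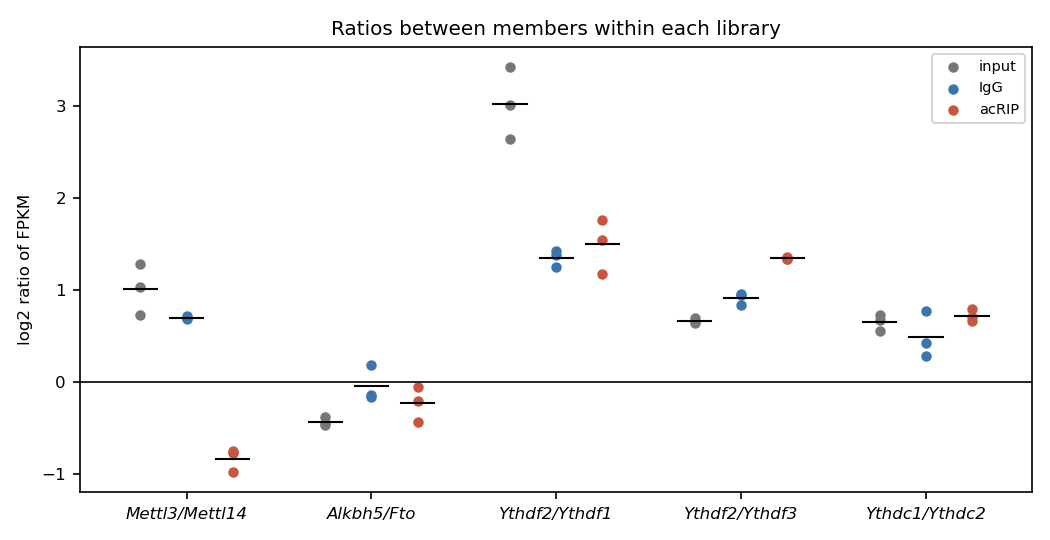
Log2 ratio of FPKM between pairs of genes within each library (3 per group; lines are group means). The ratio of Mettl3 to Mettl14 lies above 0 in input and IgG and below 0 in acRIP, from -0.98 to -0.75.

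The third writer gene, Wtap (chr17:12966796-12994169, minus strand), had 7.98, 7.53 and 9.56 scaled CPM in input, 24.7, 19.4 and 19.95 in IgG, and 10.7, 11.3 and 12.6 in acRIP. The groups did not overlap, with IgG highest and input lowest. The log2 fold change of acRIP was -0.89 ± 0.14 over IgG (edgeR, adjusted p = 4.05e-06) and 0.47 ± 0.15 over input (edgeR, adjusted p = 0.00612), while IgG exceeded input by 1.35 ± 0.14 (edgeR, adjusted p = 1.29e-09). Transcripts of AC122453.2 and Gm14292 match Wtap over 674 and 456 bases at 95.3 and 99.3% identity, so reads from these stretches may be missing from uniquely mapped counts.

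The erasers differed little between groups. Alkbh5 (chr11:60536381-60558512, plus strand) had 38.2, 40.1 and 41.3 scaled CPM in input, 43.6, 44.4 and 53.8 in IgG, and 45.2, 38.8 and 50.9 in acRIP, and the acRIP libraries overlapped both other groups. Its log2 difference of acRIP over IgG was -0.08, with a 95% interval from -0.30 to 0.15 (edgeR, adjusted p = 0.494), and over input 0.17, from -0.05 to 0.40 (edgeR, adjusted p = 0.0895). Leaving out IgG replicate 3 or acRIP replicate 2 turned the difference from IgG to 0.03 in both cases. Without acRIP replicate 2 the difference from input was 0.28, with an edgeR adjusted p of 0.00933.

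Fto (chr8:91313525-91668439, plus strand) had 113.6, 120.9 and 117.1 scaled CPM in input, 105.0, 108.6 and 103.6 in IgG, and 113.9, 114.5 and 115.3 in acRIP. The acRIP libraries lay above those of IgG and within the range of input. The log2 difference of acRIP over IgG was 0.12, with a 95% interval from -0.01 to 0.24 (edgeR, adjusted p = 0.0544), and that over input -0.03, from -0.16 to 0.09 (edgeR, adjusted p = 0.587). The former passed the threshold under several other settings, as with DESeq2 (adjusted p = 0.023), at a difference of 0.14, and without IgG replicate 2 (edgeR, adjusted p = 0.0445). The intervals of both erasers lay within 2-fold in each comparison. In IgG over input, Alkbh5 was higher by 0.25 (edgeR, adjusted p = 0.0225) and Fto lower, at -0.15 (edgeR, adjusted p = 0.0169), and both calls were lost when IgG replicate 3 was left out (edgeR, adjusted p = 0.209 and 0.0763). The call of Alkbh5 was also lost without input replicate 1 or 2 (edgeR, adjusted p = 0.0908 and 0.0612), and that of Fto without input replicate 2 or IgG replicate 1 (edgeR, adjusted p = 0.0691 and 0.0637).

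Of the readers, Ythdc1 (chr5:86804221-86836659, plus strand), which acts in the nucleus in splicing and export, had 25.2, 23.4 and 26.5 scaled CPM in input, 54.1, 55.5 and 51.0 in IgG, and 38.9, 33.3 and 37.6 in acRIP. Its log2 fold change in acRIP was -0.55 ± 0.09 over IgG (edgeR, adjusted p = 1.8e-06) and 0.55 ± 0.09 over input (edgeR, adjusted p = 1.64e-06). The acRIP libraries thus lay between the other groups, with no overlap. Of its exon bases, 631 are shared with Gm43055 on the same strand, which had 0 counts. Reads shared by both genes may have been counted for neither, so these 0 counts do not show that Ythdc1 lost no reads there.

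Ythdc2 (chr18:44827746-44889724, plus strand), a helicase needed for meiosis, had 10.3, 10.4 and 10.4 scaled CPM in input, 26.2, 21.2 and 27.4 in IgG, and 14.6, 13.4 and 15.5 in acRIP, again with acRIP between the others. The log2 fold change was -0.78 ± 0.13 over IgG (edgeR, adjusted p = 4.24e-06) and 0.48 ± 0.13 over input (edgeR, adjusted p = 0.00174). IgG exceeded input by 1.26 ± 0.13 for Ythdc2 (edgeR, adjusted p = 4.13e-10) and by 1.10 ± 0.09 for Ythdc1 (edgeR, adjusted p = 8.44e-13).

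The cytoplasmic readers, which act on translation and decay of methylated mRNA, did not share a pattern. Ythdf1 (chr2:180904377-180920949, minus strand) had 3.53, 4.69 and 5.87 scaled CPM in input, 15.2, 16.7 and 14.95 in IgG, and 8.76, 10.5 and 12.9 in acRIP. It had the largest rise of the 10 genes over input, by 1.20 ± 0.19 in acRIP (edgeR, adjusted p = 9.55e-07) and by 1.75 ± 0.18 in IgG (edgeR, adjusted p = 7.75e-10), and was lower in acRIP than in IgG, at -0.54 ± 0.17 (edgeR, adjusted p = 0.00768). The last call was lost without acRIP replicate 1 (-0.41, edgeR adjusted p = 0.062). Its raw counts ran from 106 to 315 per library.

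Ythdf2 (chr4:132184912-132212303, minus strand) had 52.2, 52.2 and 50.3 scaled CPM in input, 56.4, 54.8 and 53.4 in IgG, and 40.9, 42.2 and 40.2 in acRIP. Here input and IgG were close (0.09 ± 0.07, edgeR adjusted p = 0.305), and acRIP lay below both, at -0.42 ± 0.07 over IgG (edgeR, adjusted p = 1.13e-05) and -0.33 ± 0.07 over input (edgeR, adjusted p = 0.000157). Transcripts of Gm6823 and Gm8401 match it over 1840 and 1740 bases at 95.2 and 96.3% identity and held 8 and 26 counts over all libraries. Reads from these stretches may be missing from the uniquely mapped counts of Ythdf2 and of both, so their low counts do not measure this.

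Ythdf3 (chr3:16183212-16217037, plus strand) had 39.0, 39.5 and 36.6 scaled CPM in input, 37.2, 33.2 and 32.7 in IgG, and 19.1, 19.6 and 18.4 in acRIP. IgG and input overlapped (-0.16 ± 0.09, edgeR adjusted p = 0.13), and acRIP was below both, at -0.85 ± 0.10 over IgG (edgeR, adjusted p = 5.98e-09) and -1.01 ± 0.09 over input (edgeR, adjusted p = 3.13e-11). The FPKM ratio of Ythdf2 to Ythdf3 was 1.58 in input, 1.88 in IgG and 2.54 in acRIP, and that of Ythdf2 to Ythdf1 was 8.13, 2.55 and 2.82. For the latter the acRIP and IgG libraries overlapped (exact permutation p = 0.5).

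The wider m6A pathway was followed through 35 further genes, of which 33 were tested. In acRIP over IgG, 12 were higher and 8 lower at an adjusted p under 0.05, with 1 and 3 of them over 2-fold, where 26.4% and 37.6% of all genes were higher and lower and 11.5% and 20.9% over 2-fold. Their median log2 fold change was 0.08. Of 11 other writers, 1 was higher and 4 lower. Zc3h13, a subunit of the writer complex, was higher by 0.90 ± 0.12 (edgeR, adjusted p = 1.37e-07), while the rRNA m6A methyltransferases Mettl5 and Zcchc4 were lower, at -1.13 ± 0.16 (edgeR, adjusted p = 2.82e-07) and -1.48 ± 0.25 (edgeR, adjusted p = 7.19e-06). In counts, Zcchc4 had 40, 28 and 37 in acRIP and 88, 119 and 102 in IgG.

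Of the 14 other readers and partners tested, 6 were higher and 4 lower. Fxr2, a relative of the fragile X protein, was lower in acRIP than in IgG (-1.08 ± 0.09, edgeR adjusted p = 2.4e-11), although both exceeded input, by 1.04 ± 0.10 in acRIP (edgeR, adjusted p = 5.27e-11) and 2.12 ± 0.10 in IgG (edgeR, adjusted p = 5.57e-19). It was the only one of the 33 to share the pattern of Wtap, Ythdc1, Ythdc2 and Ythdf1, which 3.23% of all genes had. Rbmx, an RNA-binding protein of splicing, was higher in acRIP than in IgG by 0.73 ± 0.28 (edgeR, adjusted p = 0.0256), a call that was lost without IgG replicate 2, acRIP replicate 2 or acRIP replicate 3 (edgeR, adjusted p = 0.107, 0.0817 and 0.121).

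**Figure D5:**
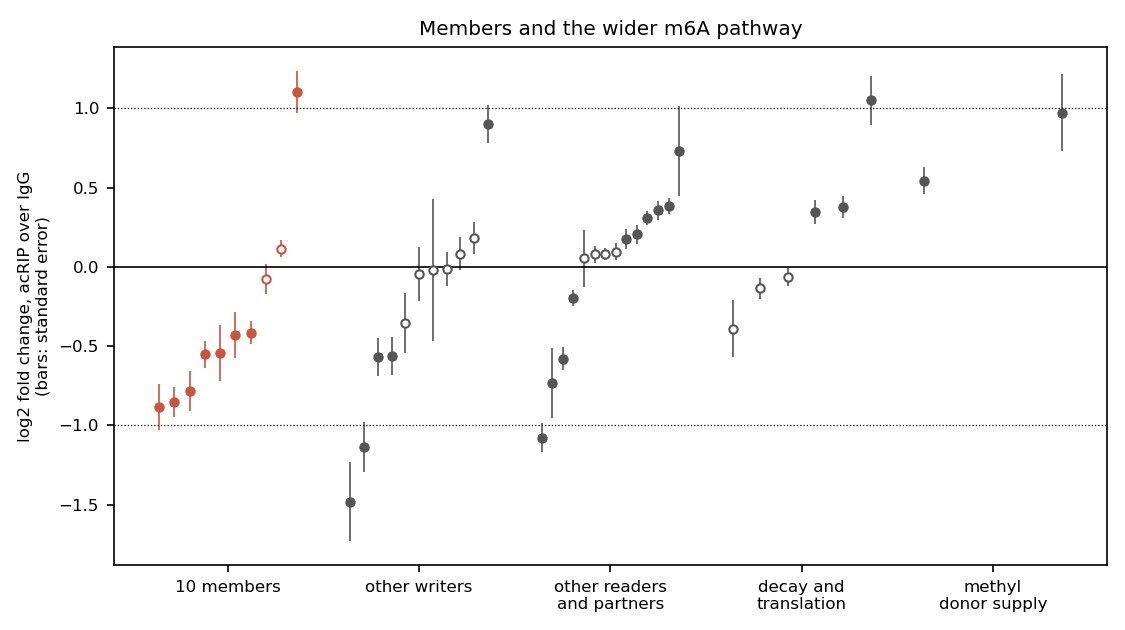
Log2 fold change of acRIP over IgG for the 10 genes (red) and 33 other genes of the m6A pathway (grey) by group, with the standard error; filled points had an adjusted p under 0.05 (edgeR) and dotted lines mark 2-fold. Filled points below 0 number 7 of the 10 genes and 8 of the 33 others, where 37.6% of all genes were lower; the difference between the lists was not tested.

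Among 6 partners of the readers in decay and translation, 3 were higher and 0 lower at an adjusted p under 0.05, against 26.4% and 37.6% of all genes. Xrn1, a 5′ to 3′ exonuclease, had -0.39 ± 0.18 with an edgeR adjusted p of 0.0584 (unadjusted 0.0381), and passed as lower with library totals (edgeR, adjusted p = 0.0332), halved counts (0.0426) and without IgG replicate 1 (0.0161) or acRIP replicate 1 (0.0416). Upf1, the helicase of nonsense-mediated decay, was higher in acRIP than in IgG by 1.05 ± 0.16 (edgeR, adjusted p = 8.77e-07) and than in input by 2.29 ± 0.16 (edgeR, adjusted p = 7.03e-14). Both tested genes of methyl donor supply were higher than in IgG, Ahcy, which clears S-adenosylhomocysteine, by 0.97 ± 0.24 (edgeR, adjusted p = 0.000857) and Mat2b, a subunit of methionine adenosyltransferase, by 0.54 ± 0.09 (edgeR, adjusted p = 2.6e-06). Mat2a, which encodes the catalytic subunit, was listed at 0 in 8 of 9 libraries and not tested, and no level is inferred from it. Nat10, the ac4C writer, was higher in acRIP than in IgG by 0.43 ± 0.10 (edgeR, adjusted p = 0.000397) and than in input by 0.42 ± 0.10 (edgeR, adjusted p = 0.000325). Including Mettl14, 12 of the 43 tested genes of the core and wider pathway exceeded both IgG and input in acRIP, where 18.2% of all genes did.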

How the data were processed

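The authors deposited raw counts per gene of uniquely mapped reads for the 9 libraries. Per the submitters' processing notes, trimming used Trim Galore 0.6.7, mapping to mm10 used STAR 2.7.10a and counting used featureCounts 2.0.2. The annotation release, the use of strand and the unit counted (mates or pairs) are not given in the sources used here. All 10 genes matched GENCODE vM21 with the same coordinates, as did 54821 of 55401 genes.

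Groups and replicate numbers came from the sample titles. The test was edgeR's quasi-likelihood test (version 4.0.16 under R 4.3.3), after filterByExpr and TMM normalization, in a model of all 9 libraries with a mean for each group. Intervals are 95% with 6 residual degrees of freedom. The script was tested on simulated data. Per-length levels (FPKM) were computed from counts, the deposited gene lengths and library totals. Ratios were compared by exact permutation tests. DESeq2 1.42.0, other scalings, filters, halved counts, a test against 2-fold, a replicate block and leaving out each library were alternatives. No 2 libraries held identical counts, and within groups the mean chi-square per gene was 3.92 to 6.04, above sampling noise. Same-numbered libraries did not deviate together (correlations from -0.005 to 0.031). Near-identical transcripts were searched at 95% identity over at least 150 bases. Besides the matches given above, Mettl3 and Ythdc1 matched many other genes over shorter stretches. Examples are St13 for Mettl3 (173 bases at 96.5% identity, 54771 counts over all libraries) and Nasp for Ythdc1 (201 bases at 97.0%, 103261 counts).

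The members and gene lists were chosen with earlier results of these data known. Named were all 10 genes and, of the 35 pathway genes, those over 2-fold in acRIP over IgG at an adjusted p under 0.05, the highest and lowest of each group, and Nat10. Genes named for other reasons (Mat2a, Tox4, near-identical genes) were chosen after their values were seen.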

Additional observations from a re-analysis of the deposited data

How the results depend on the processing

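Counts of genes among the 10 that moved by over 1.5 times are given here by setting. In acRIP over IgG, 2 genes in place of 1 were higher at an adjusted p under 0.05 with RLE size factors, upper quartile scaling, no filter, DESeq2, only the 6 libraries compared, and the replicate block, the second being Fto (0.12 with the replicate block, edgeR adjusted p = 0.0498); leaving out single libraries gave 1 to 2 (2 without IgG replicate 2), and the 7 lower genes became 6 without acRIP replicate 1 or 2. The sources used here do not say whether same-numbered libraries share RNA or animals. The block changed no other call among the 10 genes. Tested against a fold change of 2, 0 were higher and 0 lower over IgG, 0 and 0 over input, and 2 higher and 0 lower in IgG over input. Of all 22510 genes tested, 1526 were higher and 3600 lower over IgG by this test. Over input these were 2731 and 3973, and in IgG over input 1724 and 563. The 2 genes lower than input over 2-fold became 1 with RLE size factors or DESeq2, and 0 to 2 without single libraries (1 without input replicate 1, acRIP replicate 2 or acRIP replicate 3, and 0 without input replicate 2). Over all genes, 5067 of 22510 were lower with RLE, 6176 of 35699 with DESeq2 and 5373 of 23405 without input replicate 2. The 2 genes lower in IgG than in input became 4 with upper quartile scaling, and 1 to 2 without single libraries (1 without IgG replicate 1 or 3). Of the 33 pathway genes, those over 2-fold higher in acRIP over IgG were 2 with upper quartile scaling or no filter and 0 with library totals. Over all genes, these were 2751 of 22510, 3007 of 35699 and 2463 of 22510. Tested against 2-fold, with the counts over all genes given above, the pathway genes were 0 higher and 1 lower over IgG and 4 and 2 over input. In IgG over input they were 3 and 0, and upper quartile scaling gave 10 lower at an adjusted p under 0.05. The log2 difference of Alkbh5 in acRIP over IgG ranged from -0.1701 to 0.0285 without single libraries and turned positive without IgG replicate 3 (0.0282) or acRIP replicate 2 (0.0285), and that of Ythdf2 in IgG over input became -0.0096 with upper quartile scaling. With all genes among the 10 largest of any library left out of the library totals, the summed FPKM was 49.12 in input, 59.71 in IgG and 49.67 in acRIP. The order of input and acRIP thus turned. In IgG over input, the call of Alkbh5 was lost with DESeq2 (adjusted p = 0.0568) and upper quartile scaling (edgeR, adjusted p = 0.162). The cause of these changes was not tested. The lowest count of the set was 106 (Ythdf1 in input), and depth limits the precision of such genes most.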
